A study of Mus musculus with 4 samples.

Results

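S100 proteins are small calcium-binding proteins of vertebrates. RNA levels of 10 mouse S100 genes (S100a1, S100a3, S100a4, S100a5, S100a6, S100a8, S100a9, S100a10, S100a11 and S100a13) are described here in tumour cells that lack Smarcb1 and in the same cells after it was put back. They are 10 of 19938 genes with a probe set of their own on the arrays. The genes were chosen by family, with their levels, line differences and responses on these same 4 arrays already known, so their values are given as a description with no test. For each gene the probe set with the highest mean was used, and 8 of the 10 genes passed the limit on low signal (a mean of at least log2 4.27, the 30th percentile of genes). S100a8 and S100a9 lay below it.

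Smarcb1 belongs to SWI/SNF, a protein complex that moves nucleosomes. The cells were tumour lines 167 and 365, grown from soft tissue tumours of Smarcb1-heterozygous mice on a C57BL6/SV129J background. All 4 samples were p53 null and had lost their own Smarcb1. Each line received the retrovirus pMIG, empty or with Smarcb1, and total RNA was taken 3 days later and put on 1 whole-transcript array, which gives 1 array per line and vector. Levels are log2 probe set signals, and a change is the signal with Smarcb1 minus the signal with empty vector in the same line. The response of a single line therefore has no replicate, the lines are the only replicates of the vector, and the labels do not say whether a line is 1 clone.

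The vector labels matched the signal of Smarcb1, which was 4.61 with empty vector and 7.83 with Smarcb1 in line 167, and 6.01 and 9.61 in line 365. Across 13956 tested genes the limma fit with a term for the line called 9 genes higher (0.0645%) and 0 lower (0%) at an adjusted p below 0.05, with 1613 genes at an unadjusted p below 0.05, 5.88% of those tested higher and 5.68% lower. Smarcb1 itself, which the virus carried, was among the 9 called higher (limma adjusted p = 0.0371). Of the 8 S100 genes that entered the fit, 0 were called. Nothing is read from this, because the S100 genes were chosen on this contrast. Vimentin (Vim), the mesenchymal filament protein, lay between 13.3 and 13.5 on the 4 arrays. Other mesenchymal markers lay lower than Vim in line 365, with empty vector and with Smarcb1. Pdgfra was at 8.77 and 8.69 there, Col3a1 at 6.14 and 6.24, and Pdgfrb at 5.12 and 5.03. Fibronectin (Fn1) was at 7.93 and 11.8 in line 167 and at 6.92 and 9.41 in line 365 (limma adjusted p = 0.0865). Lum lay below the limit on low signal. The epithelial adhesion gene Epcam lay between 3.79 and 4.09. The epithelial keratin gene Krt19, however, was at 4.67 and 6.52 in line 167 and at 5.59 and 8.27 in line 365 with empty vector and with Smarcb1 (limma adjusted p = 0.0891). The summed linear signal of the epithelial markers ran from 253.1 to 541.0 over the arrays and that of the Schwann cell and melanocyte markers from 204.4 to 221.0.

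Most S100 proteins form dimers whose subunits each carry a pair of EF-hand calcium-binding loops. Calcium opens a surface with which they bind partners such as annexins and myosin, and several are also released from cells and act on receptors such as RAGE. The genes sit side by side in a cluster on chromosome 3 in the mouse, in which S100 genes flank the genes of the skin barrier. S100 proteins are widely used as tumour and cell type markers, and S100a4 in particular was named for metastasis and for fibroblasts.

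S100a5, a calcium-binding protein best known from olfactory sensory neurons, had the largest difference of the 10 genes, both between vectors and between lines. Its log2 signal was 10.1 in line 167 with empty vector, 6.65 in line 167 with Smarcb1, 5.04 in line 365 with empty vector and 4.21 in line 365 with Smarcb1. Each Smarcb1 array lay below its own control, but the line 167 array with Smarcb1 remained above the line 365 control, so the vector groups overlapped. The change was -3.43 in line 167, a 10.8-fold lower signal, and -0.83 in line 365, or 1.78-fold lower (mean -2.13 ± 1.84, SD, n = 2 lines). In line 167 it was number 2 from the bottom of the 13956 tested genes, and in line 365 number 269. The last of its values, 4.21, lay below the limit on low signal, where signal above background was not shown, so the size of the change in line 365 is uncertain.

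The start of S100a5 lies between those of S100a4 and S100a6, genes whose values differed little between vectors. The 250 bases before the S100a5 start (chr3:90608272-90608521, plus strand) and before the S100a4 start (chr3:90603520-90603769, plus strand) are printed because these neighbours had such unlike responses, with motifs in capitals. The letters searched were TATAAA for the TATA box. For the AP-1 site they were TGANTCA. For the GC box they were GGGCGG. Promoter sequences are those of RefSeq on GRCm38.p6, 5′ to 3′ on the gene's strand, and 9 of the 10 genes had 12 stretches there, 4 of them for S100a3, which has several starts.
S100a5: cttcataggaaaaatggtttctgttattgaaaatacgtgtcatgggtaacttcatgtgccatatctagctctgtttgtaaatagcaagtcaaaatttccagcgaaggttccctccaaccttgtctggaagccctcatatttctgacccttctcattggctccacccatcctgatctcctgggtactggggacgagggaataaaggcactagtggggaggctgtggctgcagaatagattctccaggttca
S100a4: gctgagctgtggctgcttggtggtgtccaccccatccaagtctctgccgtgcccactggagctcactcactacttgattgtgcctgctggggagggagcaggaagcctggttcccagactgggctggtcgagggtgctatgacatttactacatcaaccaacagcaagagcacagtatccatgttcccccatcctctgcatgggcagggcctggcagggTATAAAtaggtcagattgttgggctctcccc
The S100a5 stretch held none of the 3 motifs on either strand. The S100a4 stretch held 1 TATAAA, whose first base lay 31 bases before the start. Of all 32851 promoter stretches of this length, 12.4% held TATAAA, 6.75% TGANTCA and 32.7% GGGCGG on either strand, and no matches overlapped one another in the S100 genes.

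S100a4, or metastasin, which binds nonmuscle myosin, had a signal of 9.86 in line 167 with empty vector, 10.1 in line 167 with Smarcb1, 10.8 in line 365 with empty vector and 10.7 in line 365 with Smarcb1. Line 365 was the higher line under both vectors, and the arrays with Smarcb1 fell inside the range of the controls. The changes were 0.26 and -0.0225 (mean 0.12 ± 0.20, SD, n = 2 lines). S100a6, or calcyclin, which binds annexins and the calcyclin-binding protein, had 12.1 and 11.7 in line 167 and 12.4 and 12.2 in line 365, with empty vector and with Smarcb1. Its changes were both negative, at -0.41 and -0.18 (mean -0.29 ± 0.16, SD, n = 2 lines), and the vector groups overlapped.

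**Figure D1:**
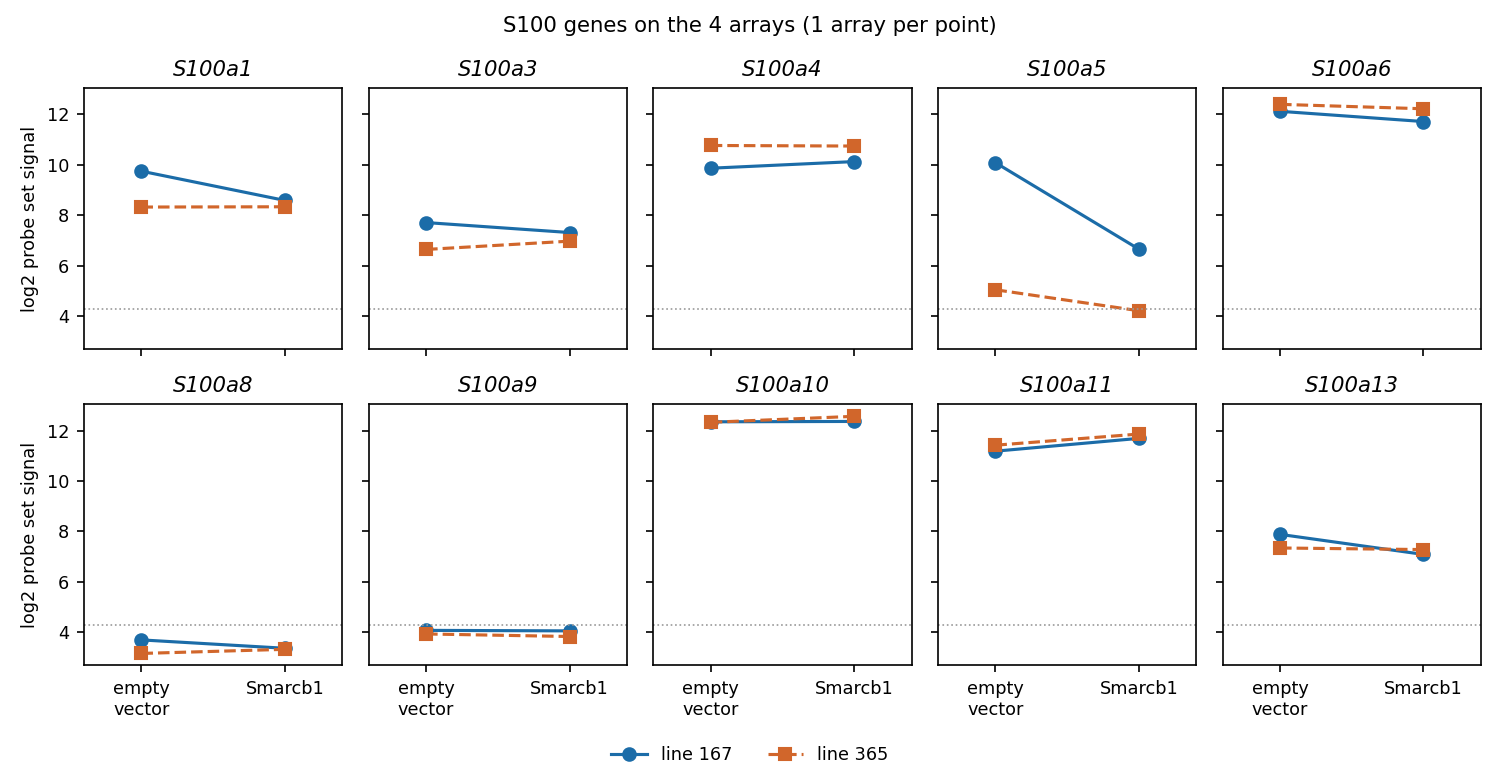
Log2 probe set signal (y axis) of the 10 S100 genes with empty vector and with Smarcb1 (x axis), 1 point per array, lines 167 (circles) and 365 (squares); the dotted line is the limit on low signal at 4.27. The S100a5 signal in line 167 was 10.1 with empty vector and 6.65 with Smarcb1, whereas S100a8 and S100a9 stay below the limit on all 4 arrays.

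S100a1 and S100a13 were lower with Smarcb1 in line 167 and near their control in line 365. S100a1, which regulates calcium handling in heart and skeletal muscle through the ryanodine receptor, had 9.74 and 8.58 in line 167 and 8.32 and 8.33 in line 365. Its change was -1.16 in line 167, or 2.23-fold lower, and 0.0109 in line 365 (mean -0.57 ± 0.83, SD, n = 2 lines). The line 167 control was the only high array, and the other 3 lay within 8.32 to 8.58. S100a13, which takes part in the release of the growth factor FGF1 and of interleukin 1 alpha, had 7.88 and 7.09 in line 167 and 7.34 and 7.28 in line 365. Its changes were -0.80, or 1.74-fold lower, and -0.063 (mean -0.43 ± 0.52, SD, n = 2 lines), and again the line 167 control was the highest array, while both Smarcb1 arrays lay below both controls.

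These genes start back to back. S100a1 is read from the minus strand and S100a13 from the plus strand, and the 104 bases between their RefSeq starts (chr3:90514331-90514434, plus strand, GRCm38.p6) are printed because this stretch lies directly before both starts.
S100a1 to S100a13: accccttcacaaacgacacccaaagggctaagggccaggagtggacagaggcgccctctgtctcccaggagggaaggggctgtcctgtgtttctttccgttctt
The stretch was 58.7% G or C and held none of the 3 motifs on either strand. In the RefSeq gene list the annotated spans of these genes overlap by 98 bases, so the gap holds for the starts used here and not for the whole spans. Where their probes lie within the genes was not analysed here. Of 635 gene pairs that start back to back within 104 bases in the same table, 234 had both genes tested, and in 5 of these (2.14%) both genes were at least 1.5-fold lower in line 167, S100a1 and S100a13 among them. In 132 of the 234 both genes were lower in line 167 by any size, and of all tested genes taken singly 57.2% were lower there. Nothing is read from these counts, because the S100 pair was chosen with its values known.

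The annexin partners S100a10 and S100a11 were the 2 genes whose signal was higher with Smarcb1 in both lines, a direction shared by 26.0% of tested genes. S100a11, which pairs with annexin A1, had 11.2 and 11.7 in line 167 and 11.4 and 11.9 in line 365. Both Smarcb1 arrays lay above both controls. The changes of 0.51 and 0.44 were close to each other (mean 0.47 ± 0.046, SD, n = 2 lines), and amounted to 1.42-fold and 1.36-fold. S100a11 has a second probe set, on which the changes were 0.38 and 0.46. On it the line 365 control (11.26) and the line 167 array with Smarcb1 (11.28) nearly coincided. Its number, 10493990, falls between those of the chromosome 3 neighbours Tchhl1 (10493986) and S100a10 (10493995). The number of the set used, 10457640, does not. RefSeq lists an S100a11 pseudogene, so signal from a near copy cannot be told apart here. Which set reads the gene itself was not tested. S100a10, the calcium-insensitive subunit that binds annexin A2 and plasminogen, had 12.3 and 12.4 in line 167 and 12.3 and 12.6 in line 365. Its changes were 0.014 and 0.24 (mean 0.13 ± 0.16, SD, n = 2 lines). Again both Smarcb1 arrays lay above both controls, though the nearest arrays of the 2 groups nearly coincided. How many tested genes separate in this way was not counted, so nothing is read from this here or for S100a13 and S100a7a.

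The stretch before the S100a11 start (chr3:93520246-93520495, plus strand) is printed as the 1 stretch of the 12 that held TGANTCA, against 6.75% of all promoter stretches, with motifs in capitals.
S100a11: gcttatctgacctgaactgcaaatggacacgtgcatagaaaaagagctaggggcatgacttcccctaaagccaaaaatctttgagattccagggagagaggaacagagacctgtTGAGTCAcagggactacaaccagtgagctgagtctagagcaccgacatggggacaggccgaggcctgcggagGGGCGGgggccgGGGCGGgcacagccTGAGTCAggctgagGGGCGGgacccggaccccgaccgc
It held TGANTCA at 136 and 38 bases before the start and GGGCGG at 64, 52 and 24 bases before it. Of the 12 stretches of the 9 genes, 3 held TATAAA (S100a4, S100a8 and 1 of the 4 of S100a3), against 12.4% of all promoter stretches. GGGCGG was held by 3 (S100a9, S100a11 and another of S100a3), against 32.7%.

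S100a3, a zinc- and calcium-binding protein of the hair cuticle, had 7.71 and 7.31 in line 167 and 6.64 and 6.97 in line 365. The changes of -0.40 and 0.33 had opposite signs (mean -0.033 ± 0.51, SD, n = 2 lines), and both Smarcb1 arrays lay between the controls. S100a8 and S100a9, which form the neutrophil protein calprotectin, lay low throughout. S100a8 was between 3.16 and 3.70 and S100a9 between 3.83 and 4.08 on the 4 arrays. Their changes of -0.33 and 0.16 for S100a8 and -0.020 and -0.10 for S100a9 are between signals not shown to exceed background. Of 15 neutrophil and other myeloid markers, 10 also lay below the limit, among them Ptprc, Itgam and Ngp. The lysosomal macrophage marker Cd68 lay well above it, at 9.32 and 8.69 in line 167 and 9.95 and 8.18 in line 365 (limma adjusted p = 0.273). The summed linear signal of the 15 was 890.4 and 3864 in line 167 and 1298 and 693.2 in line 365, mostly Cd68 in both controls. Most of the line 167 sum with Smarcb1 was lipocalin 2 (Lcn2), a secreted protein that binds iron carriers, at 11.6 against 5.57 in its control. In line 365 Lcn2 was at 6.53 with empty vector and 7.38 with Smarcb1 (limma adjusted p = 0.395 over the lines).

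Over the family, at least 2-fold lower signals with Smarcb1 occurred in line 167 in S100a5 and S100a1, 2 of the 10 genes, against 1.49% of all tested genes, and nothing is read from this because the genes were chosen with these values known. In line 365, 0 of the 10 were 2-fold lower, against 1.17%. At least 2-fold higher were 0 in line 167, against 3.40%, and 0 in line 365, against 2.84%. Lower in both lines by any size were 4 genes, S100a5, S100a6, S100a9 and S100a13, a direction shared by 34.1% of tested genes, and that of S100a9 in line 167 turned to 0.053 when each array was centred on its median. In 4 of the 10 the lines had opposite signs, against 39.8%. The median change of the 10 genes was -0.36 in line 167 and -0.0058 in line 365, where that of all tested genes was -0.055 and -0.0059. Among the fibroblast and mesenchymal markers, 9 of 10 passed the limit, with medians of 1.30 in line 167 and 0.087 in line 365. Their summed linear signal was 15550 and 20390 in line 167 and 10720 and 11920 in line 365. This sum was mostly Vim in both controls, and the changes of Vim itself were -0.22 and 0.091. The part of the mesenchymal marker shift in the S100 values was not tested.

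**Figure D2:**
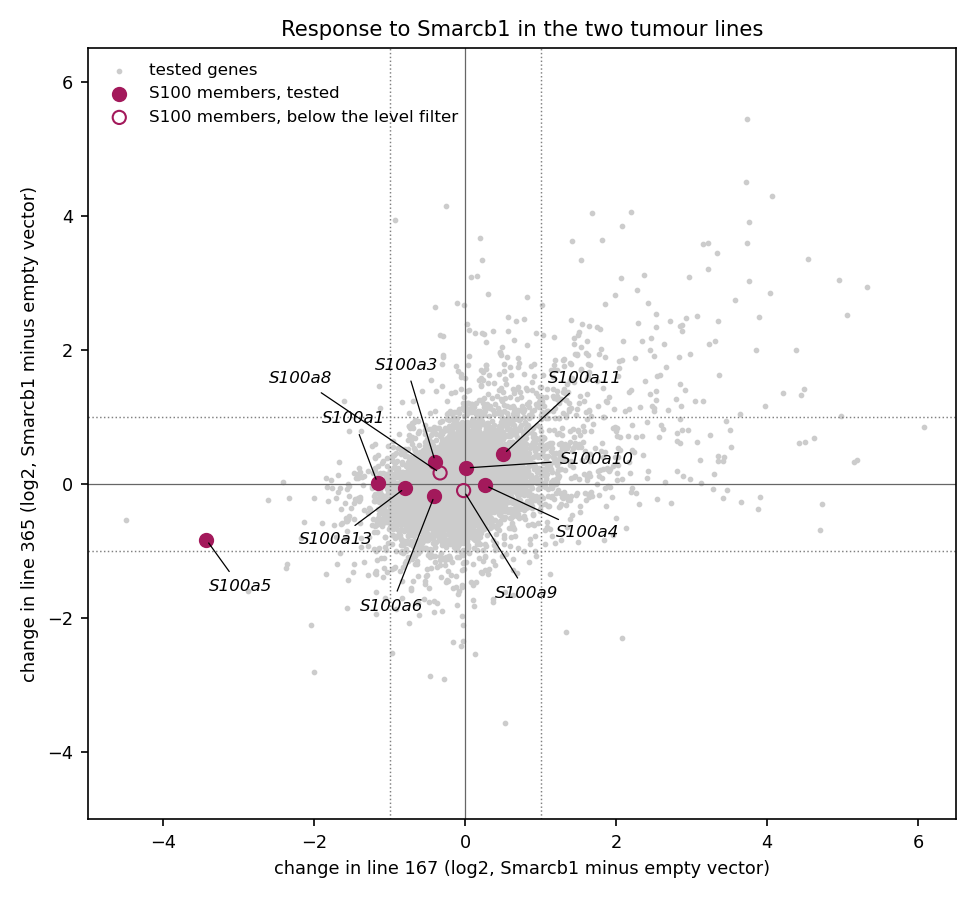
Change with Smarcb1 (log2) in line 167 (x axis) and in line 365 (y axis) for the tested genes (grey) and the 10 S100 genes (open circles: below the limit on low signal); dotted lines mark 2-fold. S100a5 lies far to the left at -3.43 and -0.83, S100a1 at -1.16 and 0.0109, and the other 8 lie within 2-fold on both axes.

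The lines already differed with empty vector. S100a5 was 32.9-fold higher in line 167 than in line 365 (a difference of -5.04 as line 365 minus line 167), number 36 by size of the 13956 tested genes. S100a1 was 2.68-fold higher in line 167 and S100a3 2.09-fold, which makes 3 of 10 genes at least 2-fold lower in line 365, against 7.24% of tested genes. None was 2-fold higher in line 365 (0 of 10, against 5.62%), and S100a4 came nearest at 1.87-fold. With Smarcb1 the S100a5 difference was 5.44-fold, though the line 365 signal behind it lay below the limit on low signal and the size is uncertain, and S100a5 was the 1 gene of 10 at least 2-fold lower in line 365, against 5.09%. In the other direction 0 of 10 reached 2-fold, against 4.42%. The S100a1 difference was 1.19-fold and the S100a3 difference 1.27-fold. In 7 of 10 genes the gap between the lines was narrower with Smarcb1, as it was in 57.6% of tested genes, and it was wider for S100a6, S100a9 and S100a10.

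**Figure D3:**
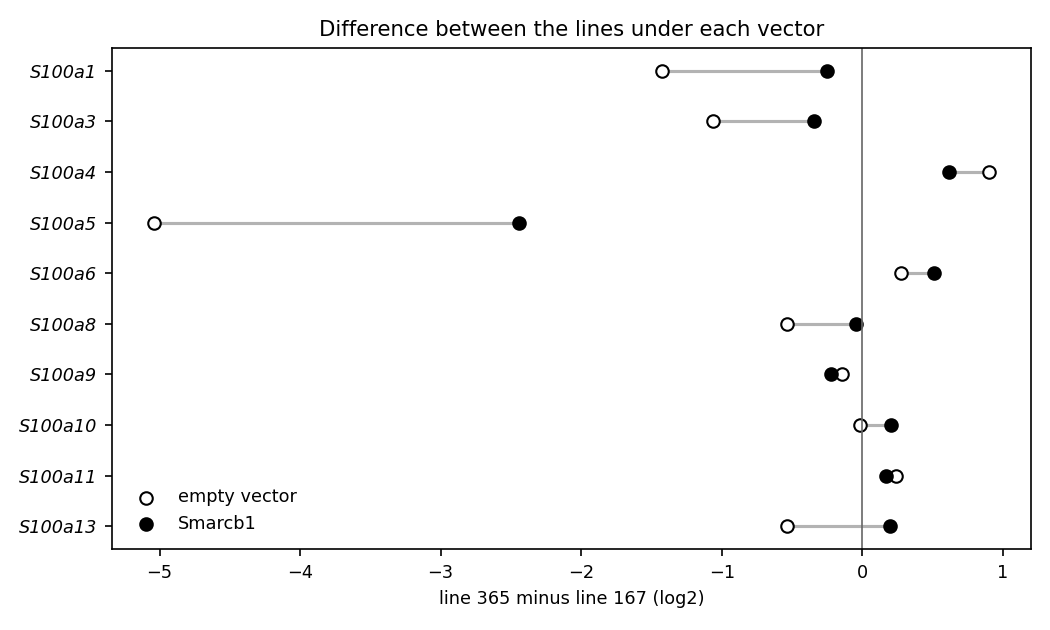
Difference between the lines (x axis, log2, line 365 minus line 167) for each S100 gene (y axis) with empty vector (open) and with Smarcb1 (filled), 1 array per line and vector. S100a5 moves from -5.04 to -2.44, S100a1 from -1.42 to -0.25 and S100a4 from 0.90 to 0.62.

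From S100a1 to S100a9, RefSeq lists 12 S100 genes in a row, 8 of them described here. In line 167, 11 of the 12 were lower with Smarcb1 by any size, all but S100a4, and 10 when each array was centred on its median, against 57.2% of tested genes. In line 365, 7 of the 12 were lower, against 50.9%. Only 8 of the 12 passed the limit on low signal, and of these 7 were lower in line 167 and 5 in line 365. Nothing is read from these counts, because the 8 genes described here were chosen with these values known. Beyond the gap, S100a11 and S100a10 were higher in both lines. The size differed between neighbours in line 167, as with S100a4 at 0.26, S100a5 at -3.43 and S100a6 at -0.41. Just outside the row, Chtop, which encodes an RNA export factor, was at -0.049 and 0.26 and Snapin, which encodes a vesicle docking protein, at -0.47 and 0.32 in lines 167 and 365. Between S100a9 and S100a11 lie 55 other protein-coding genes, mostly of the skin barrier, of which 46 had a probe set of their own and 15 passed the limit.

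Of the S100 genes not among the 10, 7 had a probe set and 2 passed the limit on low signal, S100a7a and S100a16. S100a7a, the mouse counterpart of psoriasin, had 6.85 and 6.23 in line 167 and 8.35 and 6.40 in line 365, so both Smarcb1 arrays lay below both controls. Its changes were -0.61 and -1.96 (mean -1.28 ± 0.95, SD, n = 2 lines). With a moderated SE of 0.36 the limma adjusted p was 0.313, so it did not pass. In line 365 it was number 16 from the bottom of the tested genes. Thus the larger S100a7a change was in line 365 and the larger S100a5 change in line 167, and the difference between lines was not tested. S100a16 was at -0.15 and 0.25. S100a2, S100a14, S100b, S100g and S100z lay below the limit, and S100b, the Schwann cell and melanocyte marker, was between 3.14 and 3.31.

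**Figure D4:**
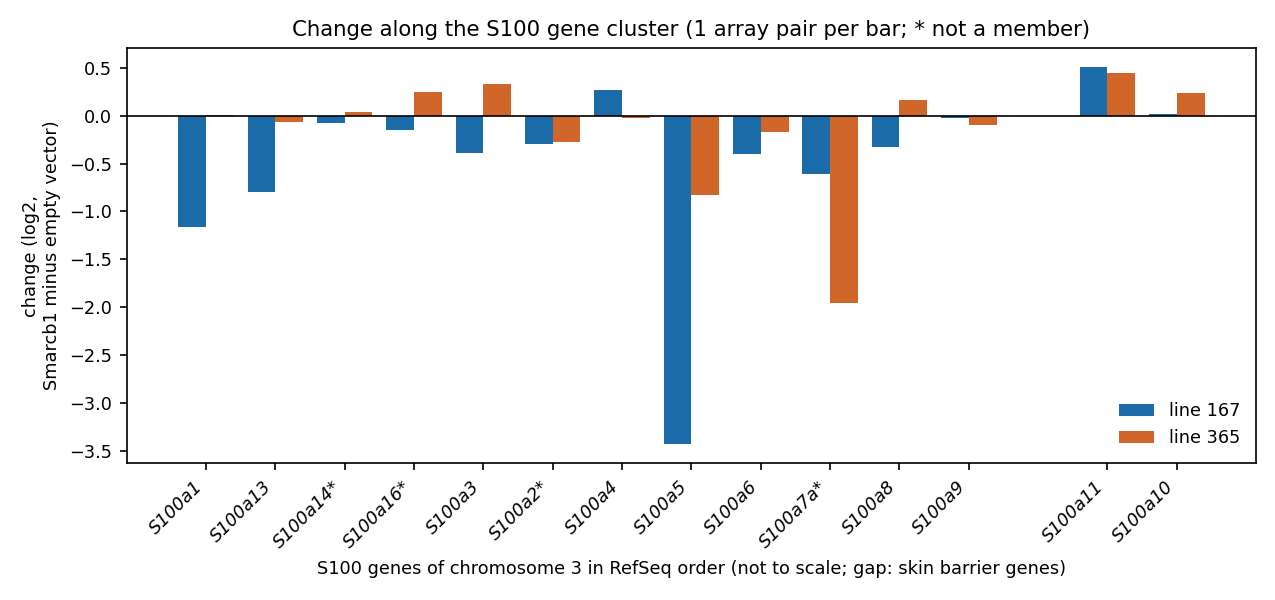
Change with Smarcb1 (y axis, log2) in lines 167 and 365 for the 14 S100 genes of chromosome 3 with a probe set, in RefSeq order (x axis, not to scale); each bar is 1 pair of arrays and asterisks mark genes that are not among the 10. The deepest bars are S100a5 in line 167 at -3.43 and S100a7a in line 365 at -1.96. The S100a11 bars are from probe set 10457640, whose number lies apart from those of its neighbours.

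Binding partners and receptors of S100 proteins were looked at next. Of 28 listed genes 22 passed the limit, and limma called 0 of them in either direction, with 5 of 22 at an unadjusted p below 0.05, all higher, against 5.88% of all tested genes. Their median change was 0.14 in line 167 and 0.13 in line 365, with 13 higher in both lines, against 26.0% of all tested genes, and 4 lower in both, against 34.1%. Nothing is read from these or the following lists' shares, because the lists were chosen with earlier results of these data known. Cathepsin B (Ctsb), a lysosomal protease that the S100a10 complex binds at the cell surface, had 10.5 and 11.2 in line 167 and 9.95 and 10.8 in line 365, with limma adjusted p = 0.121. Tissue plasminogen activator (Plat), whose action the same complex promotes, was at 2.35 and 0.43 (limma adjusted p = 0.387). The adhesion molecule gene Alcam was at 0.51 and 1.08 (limma adjusted p = 0.273) and the annexin gene Anxa6 at 0.023 and 1.12 (limma adjusted p = 0.507). Named outside the rule, after their values were seen, were the annexin partners of S100a10 and S100a11, with Anxa2 at 0.14 and 0.044 and Anxa1 at 0.20 and 0.035, and the receptor gene Ager (RAGE) at 0.051 and -0.094. So were the nonmuscle myosin gene Myh9 at 0.55 and 0.44 (limma adjusted p = 0.229) and Anxa11 at 0.53 and 0.48 (limma adjusted p = 0.357). The calcyclin-binding protein gene Cacybp was at -0.15 and -0.066.

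Other EF-hand genes gave 0 limma calls among 30 tested, with 4 higher and 2 lower at an unadjusted p below 0.05, against 5.88% and 5.68% of all tested genes. Their medians were -0.14 in line 167 and 0.11 in line 365. Necab2, a neuronal EF-hand protein gene, was at -0.86 and -1.30 (limma adjusted p = 0.193), and the mitochondrial EF-hand gene Efhd1 at -0.71 and -0.63 (limma adjusted p = 0.210). The EF-hand genes Hpcal1 and Ncs1 were at 0.29 and 1.19 (limma adjusted p = 0.409) and at 0.44 and 0.59 (limma adjusted p = 0.344). The 4 tested genes of the fused S100 type, which build the skin barrier, gave 0 limma calls and 0 at an unadjusted p below 0.05, with Hrnr at 0.34 and 0.080 and Tchhl1 at -0.039 and -0.23.

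The genes nearest in pattern to the S100 genes that reached 2-fold were found by the Euclidean distance between 4 log2 values, each gene centred on its own mean. Nearest to S100a5 was Gpr50, a receptor related to the melatonin receptors, at a distance of 0.87. It had 9.28 and 4.80 in line 167 and 3.96 and 3.42 in line 365. The line 365 values of Gpr50 lay below the limit on low signal, so the likeness in that line is uncertain. St8sia6, a sialyltransferase gene, followed at 1.45 and Spink2, a protease inhibitor gene, at 1.53. Nearest to S100a1 was Mpst, a sulfurtransferase gene, at 0.090, with 7.59 and 6.49 in line 167 and 6.24 and 6.30 in line 365, followed by Nmur1, the neuromedin U receptor gene, at 0.133 and Ncoa7 at 0.134. With 4 arrays such likeness is a description only.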

How the data were processed

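The authors deposited log2 signals per probe set. The submitters' processing notes name RMA and the Affymetrix Expression Console. RMA corrects background, quantile-normalizes arrays and summarises probes, so a change of total RNA per cell cannot be seen. The notes state no version. The values were used as deposited. The platform annotation gives 1 symbol for 21789 of 35556 probe sets, which stand for 19938 genes. The 10 members and all gene lists were chosen with earlier results of these data known. The fit (limma 3.58.1, R 4.3.3, lmFit and eBayes with intensity trend) held the cell line and the vector over the 13956 genes at or above the 30th percentile, was adjusted by Benjamini-Hochberg and was tested on simulated data. The pairing comes from the cell lines (same-line deviations correlated at 0.770 across genes), and the residual has 1 degree of freedom. The labels name no repeat cultures, so p-values rest on the spread between lines. That spread is moderated by eBayes toward the spread of other genes, with 3.75 prior degrees of freedom. Named list genes are up to 4 per list with the largest mean change of 1 sign in both lines, and the 3 genes nearest in pattern to each S100 gene that reached 2-fold. Motifs were searched on both strands in the 250 bases before each RefSeq start (GRCm38.p6). Alternatives were other normalizations, filters, probe sets and models. The number of arrays limits the precision.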

Additional observations from a re-analysis of the deposited data

Results flagged for a closer look

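In 4 of the 10 S100 genes the changes in the lines had opposite signs, against 39.8% of all tested genes, a share near theirs, and the difference was not tested, since each line has 1 array per vector. S100a1 was at -1.16 in line 167 and 0.0109 in line 365, S100a3 at -0.40 and 0.33, S100a4 at 0.26 and -0.0225, and S100a8 at -0.33 and 0.16. The line 365 values of S100a1 and S100a4 are so near 0 that their sign turned when each array was centred on its median (S100a1, to -0.018) or after quantile normalization (S100a4, to 0.0016). S100a8 lay below the limit on low signal.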

How the results depend on the processing

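The counts of S100 genes at least 2-fold higher or lower in each line stayed as given after quantile normalization, cyclic loess and median centring and with other probe sets for a gene. With a 1.5-fold limit the count lower in line 365 went from 0 to 1 (S100a5), and the one lower in line 167 from 2 to 3. No single change moved by more than 0.130 under these alternatives. Leaving out a line gives the value of the other line with no test, and no limma fit is possible then, because no residual degrees of freedom remain. The number of genes called higher by limma, 9, became 47 after quantile normalization, 48 after cyclic loess, 64 with no filter on low signal, 91 when genes under the 50th percentile were dropped and 0 with no replicate block (the line left out of the model). The number called lower, 0, became 1, 1, 4 and 10 under the first 4 of these. Without the intensity trend 8 were called, and with median centring 9. In each of these fits 0 of the 8 S100 genes tested (10 with no filter) and 0 of the listed partners and relatives were called. The cause of these shifts was not tested.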
